A study of Sus scrofa with 88 samples.

Results

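CD4, TYROBP, PSMB8, NPG4 and TNFSF4 are the 5 genes of immune cells and antigen presentation described here, chosen as the spots whose symbol in the probe-to-gene annotation of the array is one of these names. Each had 1 spot, so they are 5 of the 175 genes with a known symbol and 5 of the 20736 spots. RNA came from loin muscle (longissimus dorsi) of 176 Duroc × Pietrain F2 pigs of 44 litters, with 4 pigs taken from each litter. On each of 88 2-colour arrays, a high and a low pig of 1 litter and 1 sex were hybridized together. Pigs had been chosen as extremes within their litter for 1 of 2 traits. That trait was, by the labels, loin muscle area (LMA) on 24 female and 24 male pairs and backfat depth at the 10th rib (BF) on 20 female and 20 male pairs. The labels name no treatment and all pigs came from the same cross, so the groups differ in sex, trait and rank within the pair. The female and the male pair of a litter are related and thus not fully independent.

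The deposited value is a log2 ratio between the littermates on an array, in which 1.00 stands for a 2-fold difference. Levels in single pigs are not given by such ratios, so it was not possible to see whether a gene was above background or how strongly it was expressed next to another gene. The sources used here do not name the pig in the numerator. Over spots, the mean ratios of the LMA and BF arrays correlated at 0.938 after a change of sign wherever Cy3 had labelled the high pig, and at -0.07 as deposited. The ratios were therefore read as running in 1 fixed order of high and low pig, and a positive sign means more RNA in the numerator pig. If they ran in the order of the dyes instead, the dye coefficients and the trait coefficients below would change places. Array medians lay between -0.01 and 0.01 and array SDs, taken over all spots of an array, between 0.133 and 0.660 with a median of 0.222. On 4 arrays the SD was above 0.4, all of them from LMA litters: the male pair of litter 56 (0.660) and the female pairs of litters 12 (0.559), 32 (0.551) and 54 (0.451). Where a result was found to rest on a single array, it is given below with and without that array.

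Leukocytes reach skeletal muscle with the blood and reside in it as macrophages, and a piece of loin therefore carries some of their RNA. TYROBP, also called DAP12, is a signalling adaptor of receptors on macrophages, other myeloid cells and natural killer cells. PSMB8 is a catalytic subunit of the immunoproteasome, which cuts proteins into peptides for presentation on MHC class I and is induced by interferon in many cell types. CD4 is the co-receptor of helper T cells, in pigs also found on other leukocytes. TNFSF4, the OX40 ligand, is a co-stimulatory protein on antigen-presenting cells. NPG4 belongs to the protegrins, antimicrobial peptides of pig neutrophils made as cathelicidin precursors. The current RefSeq annotation lists the name of another cathelicidin, PMAP37, as a synonym of NPG4, and the probe sequence was not analysed here, so which cathelicidin this spot measures is uncertain. In bulk tissue, fewer cells of a type and less RNA per cell cannot be told apart.

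TYROBP was the most variable of the 5 genes between littermates. In female pairs of LMA litters its log2 ratio had a lowest value of -1.19, a median of -0.11 and a highest value of 1.1 (n = 24 arrays). In male pairs of LMA litters these values were -0.97, 0.03 and 1.68 (n = 24). Female pairs of BF litters ran from -1.88 over a median of 0.15 to 0.98 (n = 20), and male pairs of BF litters from -0.87 over a median of 0.16 to 0.62 (n = 20). The 4 groups overlapped over most of their range, and each held ratios on both sides of 0. Littermates differed by more than 2-fold on 4 arrays and by more than 1.5-fold on 10. The 4 arrays were the female pair of BF litter 88 (3.69-fold, negative sign), the male pair of LMA litter 56 (3.21-fold, positive sign), the female pair of LMA litter 79 (2.27-fold, negative) and the female pair of LMA litter 54 (2.14-fold, positive). Litters 56 and 54 are among the 4 arrays of wide ratios, whereas the array of litter 88 had an SD of 0.290 and that of litter 79 an SD of 0.212.

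PSMB8 had the next higher SD over all 88 arrays. Its log2 ratio ran from -0.72 over a median of 0.01 to 0.55 in female pairs and from -0.27 over a median of 0.002 to 0.32 in male pairs of LMA litters. In BF litters it ran from -0.58 over 0.01 to 0.32 in female pairs and from -0.34 over 0.06 to 0.88 in male pairs. No array went beyond 2-fold for PSMB8. The widest difference was 1.85-fold in the male pair of BF litter 131, followed by 1.65-fold in the female pair of LMA litter 12, an array of wide ratios.

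The other 3 genes differed little between most littermates. NPG4 ran from -1.40 over a median of -0.05 to 0.19 in LMA litters (n = 48) and from -0.18 over a median of -0.005 to 0.42 in BF litters (n = 40). Its lowest value, 2.63-fold, belonged to the male pair of litter 56, whose array had the highest SD, and the next lowest NPG4 ratio was -0.22. CD4 ran from -0.54 over a median of -0.003 to 0.28 in LMA litters and from -0.24 over a median of -0.02 to 0.14 in BF litters. The male pair of LMA litter 71 gave the CD4 ratio farthest from 0, a 1.46-fold difference. TNFSF4 stayed between -0.14 and 0.19 in LMA litters and between -0.14 and 0.26 in BF litters, so that no pair of littermates differed by more than 1.20-fold.

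**Figure D1:**
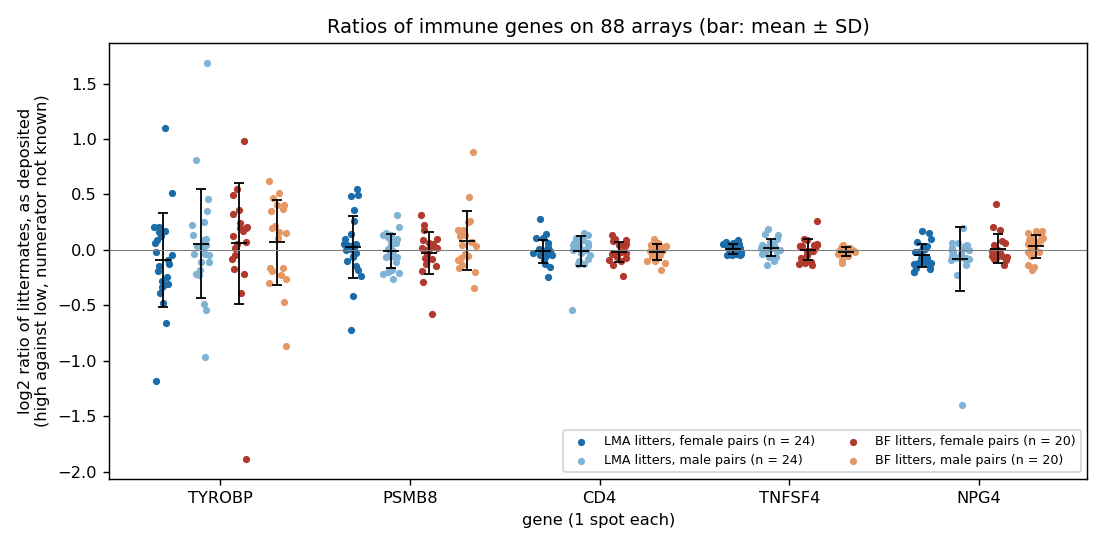
Log2 ratios of littermates as deposited (vertical axis, numerator pig not known) for the 5 genes, 1 point per array, in female and male pairs of LMA litters (n = 24 each) and BF litters (n = 20 each); bars are means and SDs. TYROBP spreads from -1.88 to 1.68, TNFSF4 from -0.14 to 0.26, and 1 male pair of an LMA litter lies far below the rest for NPG4 at -1.40.

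The spread that dye and trait leave was measured as the SD of the residuals of the linear model described next, and was ranked among all 20736 spots. It was 0.46 for TYROBP, above 94.9% of spots and 3.38 times the SD of the median spot (0.137). PSMB8 followed with 0.23, above 73.0% of spots, and NPG4 with 0.17, above 60.9%. CD4 had 0.10, above 35% of spots, and TNFSF4 0.05, above 2.28%. By group, the spread of TYROBP was lowest in rank in female pairs of LMA litters, above 88.4% of spots. It was highest in female pairs of BF litters, above 98.0%. Without the 4 wide arrays the SD of NPG4 was 0.10, above 38.9% of spots. Of these arrays, the male pair of litter 56 had an NPG4 residual of -1.29. The female pairs of litters 32, 54 and 12 had residuals of -0.02, 0.06 and 0.05. Intensities were not analysed here, so a narrow spread and a weak signal cannot be told apart.

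**Figure D2:**
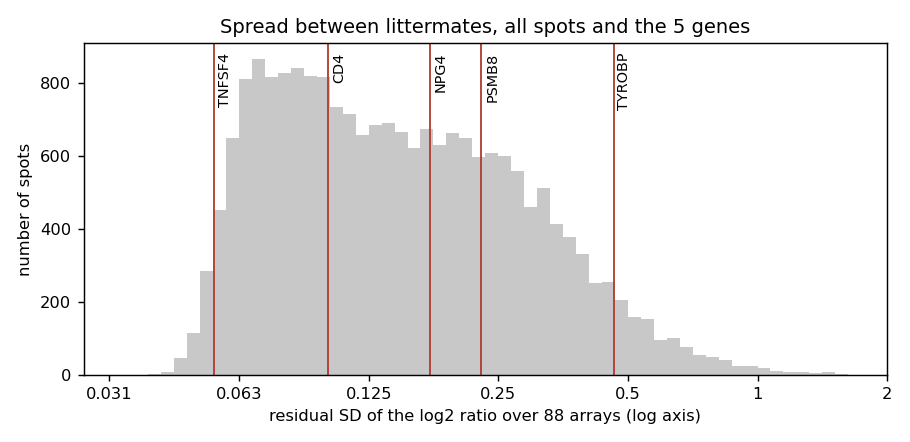
Number of spots (vertical axis) by residual SD of the log2 ratio over 88 arrays (horizontal axis, log scale), with the 5 genes as vertical lines. TYROBP lies at 0.46, above 94.9% of spots, and TNFSF4 at 0.05, above 2.28%.

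Whether the 5 genes differed between the high and the low pig was tested in 1 limma fit per spot over all 88 arrays, on ratios put into dye order, with LMA, BF and dye as terms. P-values were adjusted by the Benjamini-Hochberg method over all spots, with a threshold of 0.05. For LMA, 0 of the 5 genes and 0% of all spots passed in limma, where 871 spots had an unadjusted p under 0.05. The LMA coefficient, the mean log2 ratio of high against low in the fixed order, was -0.02 for TYROBP (standard error 0.07, 95% confidence interval -0.15 to 0.11). Leaving out 1 array gave -0.05 without the male pair of litter 56 and 0.009 without the female pair of litter 79, and none of the 88 such fits passed. The LMA coefficient was 0.01 for PSMB8 (interval -0.06 to 0.07), which lay between -0.001 and 0.02 with 1 array left out, -0.01 for CD4 (-0.04 to 0.02), which was 0.001 without the male pair of litter 71, and 0.01 for TNFSF4 (-0.001 to 0.03). NPG4 had an LMA coefficient of -0.07 (standard error 0.02, interval -0.12 to -0.02), with an unadjusted p of 0.00946 and a limma adjusted p of 1.00. Its ratio was above 0 on 15 of 48 LMA arrays, and the coefficient was -0.04 without the male pair of litter 56. It was the 1 gene of the 5 with an unadjusted p under 0.05.

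For BF, 0 of the 5 genes and 0% of all spots passed, with 772 spots at an unadjusted p under 0.05, none of them 1 of the 5 genes. The BF coefficient was 0.07 for TYROBP (interval -0.07 to 0.22), 0.03 for PSMB8 (-0.04 to 0.10), -0.02 for CD4 (-0.05 to 0.01), -0.001 for TNFSF4 (-0.02 to 0.02) and 0.02 for NPG4 (-0.04 to 0.07). The intervals of TYROBP, whose ratios were most scattered, were the widest of the 5 genes in both traits, and those of TNFSF4 the narrowest. Without the female pair of litter 88 the BF coefficient of TYROBP was 0.12, and it passed in none of the 88 fits that left out 1 array each.

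Sex and trait were then compared. The difference of the male and the female coefficient passed for 0% of spots in LMA litters (1508 with an unadjusted p under 0.05) and for 0% in BF litters (887). The smallest unadjusted p of the 5 genes was that of PSMB8 in BF litters, where the male minus the female coefficient was 0.11 (interval -0.03 to 0.25, unadjusted p = 0.123, limma adjusted p = 0.999). The LMA minus the BF coefficient passed for 0% of spots (891 with an unadjusted p under 0.05). NPG4 had the smallest p here too, with a difference of -0.08 (interval -0.16 to -0.01, unadjusted p = 0.0285, limma adjusted p = 1.00).

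**Figure D3:**
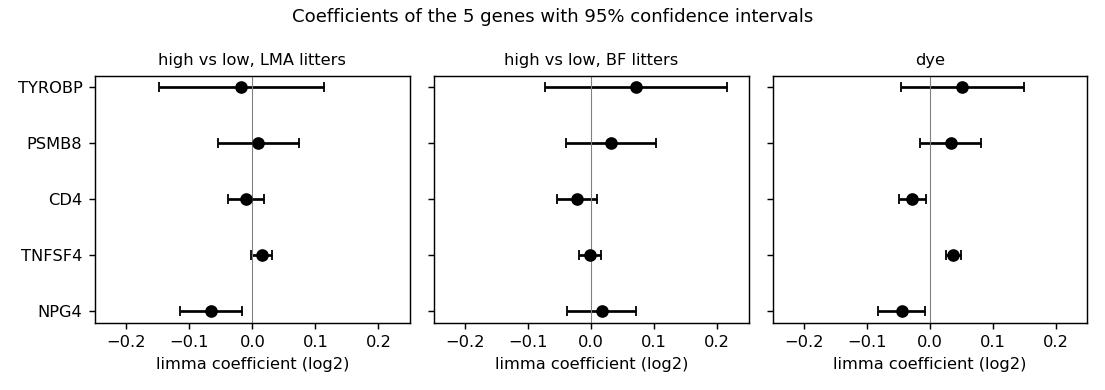
limma coefficients on the log2 scale (horizontal axis) with 95% confidence intervals (bars) for the 5 genes, for high against low pigs in LMA litters and in BF litters and for dye, each from 88 arrays. No gene passed for either trait, and the intervals of CD4, TNFSF4 and NPG4 lie off 0 for dye.

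Cy3 labelled the high pig on 47 arrays and Cy5 on the other 41. The split was even in LMA litters, with 24 of each, and uneven in BF litters, with 23 for Cy3 and 17 for Cy5. By the authors' design, the high male and the low female of a litter shared a dye. The labels follow this in LMA litters but not in all BF litters. In BF litter 106, for example, Cy3 labelled the high pig of the female and of the male pair. Whether these labels are right was not tested, and a wrong one would turn the sign of its array in dye order. The dye term passed for 61.1% of all spots, and for 3 of the 5 genes, TNFSF4, CD4 and NPG4. TNFSF4 had a dye coefficient of 0.04 (standard error 0.006, limma adjusted p = 1.25e-07), next to a median size of 0.05 over all spots. Its ratio lay above 0 on 71 of 88 arrays in the order of the dyes and on 46 of 88 as deposited. CD4 had a dye coefficient of -0.03 (limma adjusted p = 0.0196) and NPG4 one of -0.05 (limma adjusted p = 0.0286), opposite in sign to TNFSF4; without the male pair of litter 56 that of NPG4 was -0.03 and still passed. The dye coefficients of TYROBP, 0.05 (limma adjusted p = 0.373) and 0.03 without the male pair of litter 56, and PSMB8, 0.03 (limma adjusted p = 0.235), did not pass. With 61.1% of spots past the threshold, 3 of 5 is close to the share of the array as a whole.

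To see whether the 5 genes varied together, their residuals were correlated over the 88 arrays. A positive r means that the pig with more RNA of one gene also had more of the other, apart from dye and trait. The 5 genes make 10 pairs. Each pair was tested with 100000 permutations of the arrays, and in a limma fit of every other spot on the gene's residual, with p-values adjusted over 20735 spots. Of the 10 pairs, 1 passed that adjusted test: TYROBP with PSMB8.

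TYROBP and PSMB8 correlated at r = 0.361 (permutation p = 0.00101) and rho = 0.338 (permutation p = 0.00143), two-sided, over 88 arrays. When whole litters were exchanged in place of single arrays, the permutation p was 0.00125 for r and 0.00172 for rho. In limma the adjusted p was 0.0106 among the spots fitted on TYROBP and 0.00902 among those fitted on PSMB8. This r exceeded that of 95.8% of spots with TYROBP and of 95.2% of spots with PSMB8, while 6.89% of spots passed in the positive direction with TYROBP and 10.6% with PSMB8. Without the 2 arrays farthest from the median of TYROBP, r was 0.386. In fits of 1 trait or 1 sex alone it was 0.552 in BF and 0.152 in LMA litters, and 0.463 in female and 0.214 in male pairs, and it passed in BF litters only; the difference between these was not tested. Without the 4 arrays of wide ratios r was 0.435. The female pair of litter 88 carried the call: without it r was 0.274 and the limma adjusted p 0.0726, whereas without the male pair of litter 56, where TYROBP and PSMB8 had opposite signs, r was 0.461.

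CD4, the helper T cell gene, passed with none of the other 4 genes. Its r was 0.0007 with TYROBP (permutation p = 0.995), 0.06 with PSMB8 (permutation p = 0.577), 0.008 with TNFSF4 (permutation p = 0.942) and -0.07 with NPG4 (permutation p = 0.458). The limma adjusted p of these pairs was 0.750 or higher. TNFSF4 correlated at 0.140 with TYROBP (permutation p = 0.189), at -0.209 with PSMB8 (permutation p = 0.0520) and at -0.266 with NPG4 (permutation p = 0.0205, limma adjusted p = 0.106 and 0.223 in the fits on NPG4 and on TNFSF4). PSMB8 and NPG4 correlated at 0.196 (permutation p = 0.0689). By rho, TNFSF4 and NPG4 correlated at -0.206 (permutation p = 0.0539). Without the male pair of litter 56, r was -0.192 for TNFSF4 and NPG4 and 0.131 for PSMB8 and NPG4.

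TYROBP and NPG4, genes of myeloid cells and of neutrophils, had r = -0.285 (permutation p = 0.0228) but rho = -0.03 (permutation p = 0.748) and a limma adjusted p of 0.0640. That r came from 1 array: the male pair of litter 56 had a ratio of 1.68 for TYROBP and of -1.40 for NPG4, and without it r was 0.07. Without the female pair of litter 88 instead, r was -0.36.

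**Figure D4:**
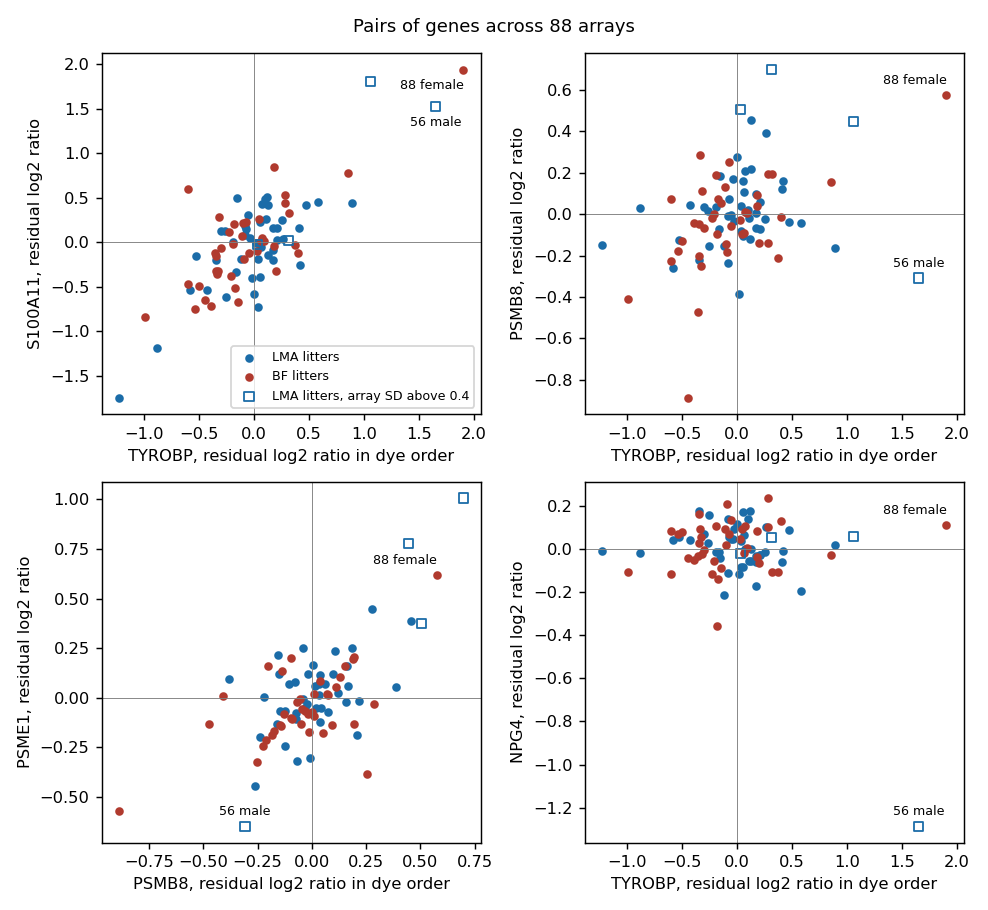
Residual log2 ratios in the order of the dyes, 1 point per array, for TYROBP and S100A11, TYROBP and PSMB8, PSMB8 and PSME1, and TYROBP and NPG4; open squares are the 4 LMA arrays with an SD above 0.4, and the male pair of litter 56 and the female pair of litter 88 are named. Points run along a rising line for TYROBP and S100A11 (r = 0.781) and for PSMB8 and PSME1 (r = 0.662). For TYROBP and PSMB8 r is lower at 0.361, and 0.274 without the female pair of litter 88. A single point sets the r of -0.285 in the last panel.

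Among spots with a gene symbol, those most like TYROBP were S100A11, CD1.1 and TSPO. S100A11 is a calcium-binding protein of many cell types, CD1.1 encodes a CD1 protein that presents lipid antigens, and TSPO is a cholesterol-binding protein of the outer mitochondrial membrane that is raised in activated macrophages. Their r with TYROBP was 0.781 (rho = 0.580), 0.626 (rho = 0.513) and 0.572 (rho = 0.459), with limma adjusted p-values of 9.20e-16, 2.83e-08 and 1.13e-06. The permutation p of each r was 1e-05, the smallest that 100000 permutations can give. These partners were picked for their high r in the same residuals, and the permutation p does not allow for that choice. All 3 passed in each of the 88 fits that left out 1 array. On the female pair of litter 88, TYROBP (-1.88), S100A11 (-2.02), CD1.1 (-0.84) and TSPO (-0.91) were low together, and on the female pair of litter 79 TYROBP (-1.19), S100A11 (-1.67) and TSPO (-0.71) were, with CD1.1 at -0.05. On the male pair of litter 56, TYROBP (1.68), S100A11 (1.61), TSPO (0.69) and CD1.1 (0.23) all had a positive sign. In fits of LMA and BF litters alone, r with S100A11 was 0.796 and 0.771, and with CD1.1 it was 0.410 (limma adjusted p = 0.0509, call lost) and 0.793. TSPO lost its call in male pairs (r = 0.391, limma adjusted p = 0.0528), whereas S100A11 passed in both traits and both sexes.

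The named spots that ran most against TYROBP were RPN2, a subunit of the oligosaccharyltransferase (r = -0.360), VNN1, a pantetheinase (r = -0.359), and MYH7, the slow myosin heavy chain of type I muscle fibres (r = -0.348). They had limma adjusted p-values of 0.0105, 0.0111 and 0.0146, while 3.51% of all spots passed in the negative direction with TYROBP. Without the male pair of litter 56, r was -0.23 for RPN2 (limma adjusted p = 0.242) and -0.28 for MYH7 (limma adjusted p = 0.109), so that both calls were lost. VNN1 passed in all 88 fits with 1 array left out but not in female pairs (r = -0.315, limma adjusted p = 0.342) or in BF litters (r = -0.258, limma adjusted p = 0.497). PLIN1, the lipid droplet protein of fat cells, had r = -0.01 with TYROBP, and RETN, also listed as an adipocyte gene, had r = -0.14 (limma adjusted p = 0.484). HBE1, a haemoglobin gene, had r = -0.07, and as an embryonic globin it is a weak marker of blood. Whether the share of muscle, fat or blood in a sample had a part in the ratios of TYROBP was not tested further.

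For PSMB8 the nearest named spots were PSME1, CYBA and FOLR1. PSME1 encodes the alpha subunit of the PA28 activator that docks on the proteasome and, like PSMB8, is induced by interferon. CYBA is the p22-phox subunit of the NADPH oxidase of phagocytes, and FOLR1 is a folate receptor. Their r with PSMB8 was 0.662 (rho = 0.477), 0.588 (rho = 0.417) and 0.560 (rho = 0.431), with limma adjusted p-values of 2.02e-09, 7.14e-07 and 3.83e-06. Like those of TYROBP, these partners were picked for their high r in the same residuals. All 3 passed in each of the 88 fits with 1 array left out. With the 4 wide arrays left out, r was 0.540 for PSME1, 0.457 for CYBA and 0.384 for FOLR1, and all 3 still passed. PSME1 and PSMB8 correlated at 0.707 in LMA and 0.600 in BF litters, and at 0.666 in female and 0.616 in male pairs, and passed in each. CYBA lost its call in male pairs (r = 0.399, limma adjusted p = 0.554). FOLR1 lost it in male pairs (r = 0.223, limma adjusted p = 0.967) and in BF litters (r = 0.466, limma adjusted p = 0.103). PSME1 itself had r = 0.241 with TYROBP (limma adjusted p = 0.141), whereas CYBA had r = 0.485 with TYROBP (limma adjusted p = 0.000126) and CD1.1 had r = 0.466 with PSMB8 (limma adjusted p = 0.000422). The r of CYBA with TYROBP and of CD1.1 with PSMB8 were not repeated with arrays left out. On the female pair of litter 88, TYROBP (-1.88), CYBA (-1.30), CD1.1 (-0.84) and PSMB8 (-0.58) were low together. On the male pair of litter 56 the signs were opposite for CYBA (-0.80) and TYROBP (1.68), and for CD1.1 (0.23) and PSMB8 (-0.27). The genes that ran most against PSMB8 were the prolactin receptor PRLR (r = -0.450), PGLYRP1, a peptidoglycan-binding protein of neutrophil granules (r = -0.442), and the melanocortin receptor MC1R (r = -0.426). Their limma adjusted p-values were 0.000758, 0.00101 and 0.00154, and 5.45% of spots passed in the negative direction. Without the female pair of litter 12, r was -0.32 for PGLYRP1, which then missed the threshold (limma adjusted p = 0.0510), and -0.33 and -0.34 for PRLR and MC1R, which kept it. Without all 4 wide arrays none of the 3 passed, with r = -0.28 for PRLR, -0.35 for PGLYRP1 and -0.18 for MC1R. PRLR and MC1R passed in 7 of 14 alternatives each and PGLYRP1 in 8, and in BF litters r of MC1R was -0.03.

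**Figure D5:**
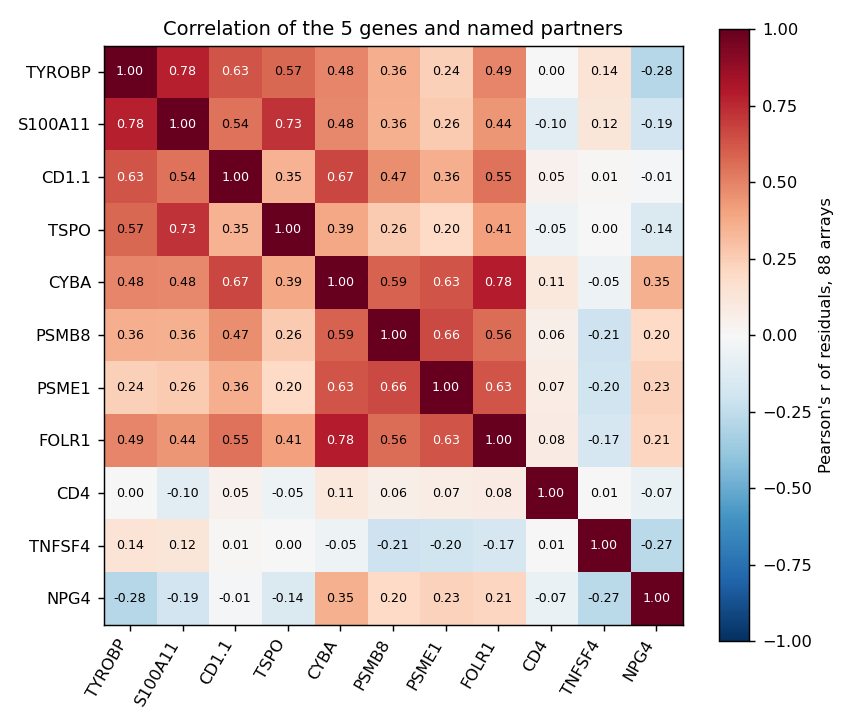
Pearson's r of residual log2 ratios over 88 arrays (colour and number in each cell) between the 5 genes and the named spots nearest to TYROBP and PSMB8. The values among TYROBP, PSMB8 and their partners are positive, from 0.20 for TSPO and PSME1 to 0.78 for S100A11 and TYROBP and for CYBA and FOLR1. The r of CD4 with them lies between -0.10 and 0.11. These partners were picked for their high r with TYROBP or PSMB8 in the same residuals, and the partners of CD4 are not shown. The positive values and their contrast with CD4 can follow from that choice, so nothing is read from them.

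Of the named partners of CD4, TNFSF4 and NPG4, none passed in all 88 fits that left out 1 array. With CD4, 1.97% of spots passed in the positive and 2.9% in the negative direction. The named spots of highest r were CRSP-2 (calcitonin receptor-stimulating peptide 2, r = 0.391, rho = 0.02), GAD1 (glutamate decarboxylase, r = 0.371, rho = 0.136) and ELSPBP1 (an epididymal sperm-binding protein, r = 0.308, rho = 0.08). CRSP-2 (limma adjusted p = 0.0186) and GAD1 (limma adjusted p = 0.0256) passed, and ELSPBP1 (limma adjusted p = 0.0717) did not. With the array of the male pair of litter 71 left out, on which the CD4 ratio was farthest from 0, r was -0.12 for CRSP-2, 0.18 for GAD1 and 0.08 for ELSPBP1. The lowest r with CD4 were those of the sex-determination factor DMRT1 (-0.394), the organic cation transporter SLC22A2 (-0.390) and the pancreatic polypeptide receptor PPYR1 (-0.373), each with a limma adjusted p of 0.0222 or less. GAD1, DMRT1 and PPYR1 lost the call when the male pair of litter 71 or the female pair of litter 32 was left out, and SLC22A2 when the latter was. The values without the array of litter 32 include an r of -0.28 for SLC22A2 (limma adjusted p = 0.170), and without that of litter 71 r was -0.32 for DMRT1 and -0.22 for PPYR1.

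With TNFSF4, 0% of spots passed in limma in the positive and 0% in the negative direction, where 1590 and 1504 had an unadjusted p under 0.05. The highest r of a named spot were 0.337 for DEFB110, a beta-defensin, 0.325 for PDCD1LG2, the PD-1 ligand PD-L2, and 0.314 for the serotonin receptor HTR4. The lowest were -0.293 for QDPR, an enzyme of tetrahydrobiopterin recycling, -0.289 for SRY and -0.279 for the transaminase GOT1. The limma adjusted p of these 6 was 0.187 or higher.

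With NPG4, 5.76% of spots passed in the positive and 5.81% in the negative direction, and the male pair of litter 56 carried the named ones. The highest r were those of OCA2, a melanosomal membrane protein (0.453), NTAN1, an N-terminal asparagine amidase (0.398), and CYBA (0.352). The lowest were those of the prohormone convertase PCSK2 (-0.472), CA11 (-0.314), a protein related to the carbonic anhydrases, and ULBP1 (-0.312), a ligand of the natural killer receptor NKG2D. Without that pair, r was 0.230 for OCA2, -0.001 for NTAN1, 0.114 for CYBA, -0.14 for PCSK2, -0.07 for CA11 and -0.06 for ULBP1, and none of the 6 passed.

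Most spots have no symbol, and the spots nearest to TYROBP and PSMB8 were among these. The highest r with TYROBP was 0.940, for spot 15422 (rho = 0.916), which was 0.943 in LMA and 0.956 in BF litters and stayed between 0.929 and 0.949 when each array was left out in turn. In all, 4 spots had r over 0.8 with TYROBP, and 29 over 0.7. With PSMB8, spot 8376 had the highest r, 0.801 (rho = 0.687), and 15 spots had r over 0.7. For CD4 the highest r was 0.638, for spot 4559, and 0.310 without the male pair of litter 71. For TNFSF4 it was 0.459, for spot 1958 (limma adjusted p = 0.0946), and for NPG4 0.774, for spot 18677, which fell to 0.220 without the male pair of litter 56. These spots are named by their number on the array, and their genes are not known here.

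Other immune genes on the array were counted to see how far the 5 follow leukocyte genes in general. Of 230 listed symbols in 10 lists, 18 had a spot, the 5 genes included; MHC class II, B cells with immunoglobulins, and leukocyte adhesion had 0, so that the usual markers of those cells were not measured by a named spot. A further 23 immune genes with a spot were added after values had been seen. Of these 41 genes, 0 passed for LMA and 0 for BF in limma, and 29 passed for dye, next to 61.1% of all spots. Among the 40 that are not TYROBP itself, 3 passed with TYROBP in the positive direction (PSMB8, CYBA and CD1.1) and 0 in the negative one, with a median r of -0.01 next to -0.02 over all spots. With PSMB8, 4 passed in the positive direction (TYROBP, PSME1, CYBA and CD1.1) and 3 in the negative one (PR39, PDCD1LG2 and PGLYRP1), with a median r of -0.160 next to -0.01 over all spots. PR39, a cathelicidin of neutrophils like NPG4, had r = -0.29 with PSMB8 and 0.08 with NPG4. With CD4, 0 passed in the positive and 2 in the negative direction (LTA and XCR1), and with TNFSF4 0 and 0. With NPG4, 1 passed in each direction (CYBA and ULBP1). These counts lie near the shares of all spots given above, so nothing is read from them about immune genes as a whole. The calls of PR39 and PDCD1LG2 with PSMB8 and of LTA and XCR1 with CD4 were not repeated with arrays left out. SIGLEC1, the sialoadhesin of macrophages, had r = -0.08 and the monocyte receptor CCR2 r = -0.08 with TYROBP, while the monocyte lectin FCN1 had r = 0.267 (limma adjusted p = 0.0910). The residual SD of SIGLEC1 and CCR2 was above 18% and 20.5% of spots, that of TYROBP above 94.9%.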

How the data were processed

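The authors started from median spot intensities of loin muscle RNA, subtracted no background, applied lowess within print tips followed by scaling, and deposited 1 log2 ratio per spot and array. These log2 ratios were used as deposited, for 20736 spots on 88 arrays, and no value was missing for the 5 genes. Arrays were mapped to litter, sex, trait and dye of the high pig by their labels, and spots to genes by the annotation of the array. Ratios were multiplied by -1 where the high pig carried Cy3, and limma 3.58.1 (lmFit and eBayes, R 4.3.3) was fitted with an intercept for dye and a column for each trait. Correlations used the residuals, with limma fits on each gene's residual and 100000 permutations in Python 3.11.15. For unnamed spots, r within a trait or without an array used the residuals of the fit on all arrays; for named genes the fit was repeated. The fits were tested on simulated data. Intensities were not analysed here. Precision is limited by the number of arrays. Permuting single arrays ignores the litter, whose arrays had a consensus correlation of 0.126, so whole litters were exchanged too.

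The 5 genes and the gene lists were chosen with earlier results of these data known. Named genes are the 5, the 3 spots with a symbol of highest and of lowest r with each, and list genes that passed or mark leukocytes. SIGLEC1, CCR2, FCN1, PLIN1, RETN and HBE1 were named after their values were seen, as were the 23 added genes. Alternatives were litter as a random replicate block, 1 trait or 1 sex only, other normalizations, array weights, a filter on spots of low spread, Spearman's rho, another measure of spread and arrays with an SD above 0.4 left out. Leaving out the male pair of litter 56, the female pair of litter 88 or each array in turn, and exchanging whole litters, were added after the data had been seen.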

Additional observations from a re-analysis of the deposited data

How the results depend on the processing

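In limma, the counts for LMA and BF were 0 under each of 11 alternatives per trait, where 591 to 1155 spots had an unadjusted p under 0.05 for LMA, and for BF 526 to 1460. With litter as a random replicate block, which lets the arrays of a litter correlate, r of TYROBP and PSMB8 was 0.349 (limma adjusted p = 0.0144). The block changed no call of the 5 genes, and the BF coefficient of TNFSF4 was 0.000102. The filter on spots of low spread left 7538 spots past the dye test in place of 12673, out of fewer spots tested. These counts have different totals, and the shares that passed were not compared. The spread of CD4 was above 16.4% of spots by the median absolute deviation and above 10.0% in BF litters, and that of NPG4 above 38.9% without the 4 wide arrays.

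The call of TYROBP and PSMB8 was lost in LMA litters (r = 0.152), in female pairs (r = 0.463, leaving 0 of 10 pairs called) and in male pairs (r = 0.214). It was also lost without the female pair of litter 88 (r = 0.274). Each of these fits had fewer arrays, as did that of BF litters, where the call was kept (r = 0.552). With each array left out in turn, r lay between 0.274 and 0.461. Trait and dye coefficients changed sign in 9 cases, single arrays left out aside; with 1 array left out, 4 of 15 coefficients and 4 of 10 correlations could change sign, among them the BF coefficient of TNFSF4 (0.00253 without the female pair of litter 139). In BF litters the dye coefficient was -0.0145 for TYROBP and -0.0104 for PSMB8. In female pairs the BF coefficient was -0.0183 for PSMB8 and 0.0053 for TNFSF4. In male pairs the dye coefficient was -0.0339 for TYROBP and -0.0165 for PSMB8, and the LMA coefficient 0.0554 for TYROBP and -0.00683 for PSMB8. The dye calls of CD4 and NPG4 were lost in LMA litters and in male pairs, and that of NPG4 also in BF litters; that of PSMB8 passed in female pairs.

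Correlations changed sign in 25 cases. That of PSMB8 and CD4 was -0.0195 with Spearman's rho, -0.0198 with scale and -0.0352 with quantile normalization, -0.0251 with array weights, -0.0272 without the wide arrays, -0.0338 with residuals divided by the SD of their array, -0.0556 in male pairs and -0.0447 in BF litters. That of TYROBP and NPG4 was 0.0632 without the wide arrays, 0.0605 in female pairs, 0.187 in BF litters and 0.0685 without the male pair of litter 56. That of TYROBP and CD4 was -0.0686 in female pairs, -0.0669 in BF litters, -0.0135 in LMA litters, -0.0129 with no term removed, -0.0259 without the pair of litter 56 and -0.0271 without that of litter 88. That of CD4 and TNFSF4 was -0.177 in female pairs, -0.0689 in BF litters, -0.00537 with no term removed and -0.00444 without the pair of litter 56. That of CD4 and NPG4 was 0.0574 in female pairs, 0.122 in BF litters and 0.0259 with residuals divided by the SD of their array. TYROBP and NPG4 passed in LMA litters, in male pairs and without the pair of litter 88, all of which keep the pair of litter 56. The cause of the other changes was not tested.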
